A study of Mus musculus with 12 samples.

Results

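RNA of inguinal white adipose tissue (iWAT) was counted gene by gene in 12 mice, and the genes described here are those of antigen presentation by the major histocompatibility complex (MHC). They were taken as every gene whose name starts with H2-, the prefix of the mouse MHC, together with Cd74, Ciita, B2m, Tap1, Tap2, Tapbp, Psmb8, Psmb9, Psmb10, Nlrc5 and Erap1. This rule, which uses names and no measured value, found 56 of the 54134 genes listed. Of these, 33 were class I heavy chain genes or B2m, 8 belonged to the class I pathway (peptide supply, loading and transactivation) and 14 belonged to class II. The remaining gene, H2-Ke6, carries an H2 name but encodes a steroid dehydrogenase and was kept apart. On genome build GRCm38, 50 of the 56 genes lie on chromosome 17 between 33915899 and 37483552. B2m is on chromosome 2, Nlrc5 and Psmb10 are on chromosome 8, Erap1 is on chromosome 13, Ciita is on chromosome 16 and Cd74 is on chromosome 18.

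The mice were male C57BL/6J, a strain of the H2-b haplotype. At 8 weeks of age each received 1e+12 genome copies of an adeno-associated virus (AAV) through the tail vein, and iWAT was taken after 4 weeks on chow and a 4 h fast. In the 6 AAV-Notum mice the virus encoded mouse Notum, a secreted enzyme that inactivates Wnt proteins, and in the 6 AAV-GFP mice it encoded green fluorescent protein. The thyroxine binding globulin promoter restricts both transgenes to the liver, so the fat itself was not the tissue targeted, and the control mice carried virus too. The comparison addressed here is whether liver-made NOTUM went with a different level of class I or class II transcripts in this fat depot.

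Between 14711113 and 21618860 reads per mouse fell on genes, and the RNA integrity number ran from 5.7 to 7.6. Transcripts of 10 adipocyte markers summed to between 33567 and 77365 CPM (counts scaled to a common library size after TMM normalization). Lymphoid transcripts were far lower in 2 mice than in the rest. The 12 B cell markers, such as Pax5 and Cd79a, summed to 12.2 CPM in mouse AAV-GFP-2011 and 7.39 CPM in mouse AAV-GFP-2014 but to at least 447.6 CPM in each of the other 10 mice. The 12 T cell markers, such as Cd3e and Lck, summed to 11.4 and 7.15 CPM in these mice, 36.8 CPM in AAV-GFP-2012 and at least 210.9 CPM in the other 9, so that by T cell markers AAV-GFP-2012 was low as well. Mouse AAV-GFP-2011 also had the lowest RNA integrity number, 5.7. The labels give mouse AAV-GFP-2012 another RNA isolation date than the other 11 mice. In these bulk libraries fewer cells of a type and less RNA per cell cannot be told apart. Because antigen presentation genes are abundant in lymphoid cells, the class medians and the genes at an unadjusted p under 0.05 are also given without these mice, called the 2 lymphoid-low mice below.

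MHC class I molecules sit on almost every nucleated cell and show peptides from the cell's own proteins to CD8 T cells. Each consists of a heavy chain, such as those of H2-K1 and H2-D1, and the shared light chain beta-2 microglobulin, encoded by B2m. Immunoproteasome subunits (Psmb8, Psmb9 and Psmb10) cut the peptides, the transporter TAP (Tap1 and Tap2) carries them into the endoplasmic reticulum, the aminopeptidase ERAP1 trims them, and tapasin (Tapbp) helps to load them. MHC class II molecules, in contrast, are typical of B cells, dendritic cells and macrophages and show peptides from engulfed material to CD4 T cells. Their alpha and beta chains (H2-Aa, H2-Ab1 and H2-Eb1) assemble on the invariant chain CD74, H2-DM exchanges the peptide, and H2-DO, found mainly in B cells, restrains H2-DM. A pair of related proteins switch the systems on: CIITA drives class II genes and NLRC5 drives class I genes.

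Both transactivators act through a shared promoter module that includes a Y box, in which the factor NF-Y reads the letters ATTGG on either strand. Stretches upstream of the annotated start of 5 genes on which the results turn are printed here from RefSeq (GRCm38.p6) to show this module in class II and class I promoters side by side, each 5′ to 3′ on the strand of its gene. Capitals mark every ATTGG on either strand, the sequence GGGGATTCCCC (a site for NF-kappaB in the class I enhancer A) and TTTCNNTTTC on either strand (the core of an interferon-stimulated response element). The first 3 are class II genes, namely H2-Aa (chr17:34287824-34287933, minus strand), H2-Eb1 (chr17:34305757-34305866, plus strand) and H2-Ob (chr17:34238793-34238902, plus strand). H2-K1 (chr17:34000348-34000477, minus strand) and B2m (chr2:122147541-122147685, plus strand) represent class I. None of these bases lies in an annotated exon.
H2-Aa: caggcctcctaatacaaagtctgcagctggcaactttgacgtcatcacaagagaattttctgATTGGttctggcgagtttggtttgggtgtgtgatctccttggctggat
H2-Eb1: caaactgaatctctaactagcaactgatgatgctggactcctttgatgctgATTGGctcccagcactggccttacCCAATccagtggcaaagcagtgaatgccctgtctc
H2-Ob: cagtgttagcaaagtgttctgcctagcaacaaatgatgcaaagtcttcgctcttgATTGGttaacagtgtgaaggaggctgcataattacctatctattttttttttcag
H2-K1: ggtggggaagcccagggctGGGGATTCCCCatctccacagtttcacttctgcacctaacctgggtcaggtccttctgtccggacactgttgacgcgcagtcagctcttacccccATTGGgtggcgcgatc
B2m: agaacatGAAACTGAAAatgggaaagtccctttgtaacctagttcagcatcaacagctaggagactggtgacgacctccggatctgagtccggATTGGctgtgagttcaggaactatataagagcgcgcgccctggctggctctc

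A RefSeq promoter window, from 250 bases before to 50 bases after a start, was held for 39 of the 56 genes. ATTGG occurred on either strand in all 8 class II windows, in 21 of 24 class I heavy chain or B2m windows, in 3 of 6 class I pathway windows and in 37.4% of the 32851 mouse windows searched. The longer form CTGATTGG, which contains ATTGG and so overlaps it, occurred in 4 of 8 class II windows, in 14 of 24 class I windows, in 2 of 6 pathway windows and in 4.1% of all windows. All class II matches of CTGATTGG lay on the strand of the gene, and all class I heavy chain matches on the other strand. In H2-D1, for example, it lay at -53 on the other strand, apart from the ATTGG at -76 on the gene's own strand. Of genes that passed the low-count filter below, 4 of 8 class II and 7 of 13 class I windows held CTGATTGG. GGGGATTCCCC was in the windows of H2-K1, H2-D1 and H2-Q6 and in 0.0304% of all windows. TTTCNNTTTC was in those of B2m, H2-T22, H2-T23 and Erap1 and in 3.44% of all windows. The letters searched were read from windows of these genes, ATTGG and CTGATTGG from H2-Aa, GGGGATTCCCC from H2-K1 and TTTCNNTTTC from B2m. The matches of these letters in their source genes were thus fixed in advance. All these matches describe the letters of the windows and are not measurements of binding.

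Of the 56 genes, 37 passed edgeR's filter on low counts, 11 of class II, 17 of class I heavy chain genes and B2m, all 8 of the class I pathway, and H2-Ke6. The other 19 had at most 20 reads in any mouse, the highest being H2-Q2, and 8 of them had no read in any mouse. The 19 included all the H2-M10 genes and H2-M1, which are known from the vomeronasal organ, and the pseudogenes H2-Pa and H2-Pb. H2-Ea-ps, the inactive H2-E alpha gene of the H2-b haplotype, had 1 read in all 12 mice together.

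Most of the genes tested were higher in AAV-Notum than in AAV-GFP mice, but by less than the test could call. Of the 37, 36 had a log2 fold change above 0, as did 51.2% of all 15585 genes tested. None passed an adjusted p of 0.05 (edgeR's quasi-likelihood test, Benjamini-Hochberg over 15585 genes, smallest value 0.235), where 0% of all genes were called higher and 0.0513% lower. At an unadjusted p under 0.05, 8 were higher and 1 was lower, beside 4.64% and 9.54% of all genes. The 8 were H2-K1, H2-Q4, H2-T10, H2-T23, Psmb8, Psmb9, Tap1 and Tap2, all of class I or its pathway, and the 1 was H2-M9. DESeq2 called 1 of them at an adjusted p under 0.05, H2-K1, where it called 0.531% of all genes higher and 2.32% lower. The median log2 fold change was 0.70 for class II genes, 0.57 for class I heavy chain genes and B2m, 0.28 for class I pathway genes and 0.01 for all genes tested.

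Class II genes had the larger fold changes and the larger spread. Cd74, the invariant chain, had 289.9 CPM in the lowest AAV-GFP mouse, a median of 1258 CPM and 1951 CPM in the highest. In AAV-Notum mice Cd74 ran from 843.3 CPM through a median of 1946 CPM to 2492 CPM. The group ranges overlapped widely, with the lowest AAV-Notum mouse, AAV-Notum-2042, level with the lowest AAV-GFP mouse outside the lymphoid-low pair. The means were 1169 ± 693 CPM and 1830 ± 593 CPM (mean ± SD of 6 mice). By edgeR the log2 fold change of Cd74 was 0.65 (standard error 0.43, unadjusted p = 0.158, adjusted p = 0.468), and the two-sided exact permutation test over all 924 assignments of mice to groups of 6 gave p = 0.102.

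The chains of the classical class II molecules had the same lowest mice. H2-Aa, the alpha chain of H2-A, had 172.2, 659.4 and 951.7 CPM in the lowest, median and highest AAV-GFP mice and 487.2, 965.9 and 1239 CPM in AAV-Notum mice. Its partner H2-Ab1 had 138.6, 438 and 601.3 CPM against 304.7, 650.4 and 815.4 CPM. H2-Eb1, the beta chain of H2-E, had 137.1, 463.4 and 676.1 CPM against 330.5, 709.8 and 852.1 CPM. For each of the 3 genes, 5 of 6 AAV-Notum mice exceeded the mean of the controls and 3 of 6 exceeded their highest mouse. Their log2 fold changes were 0.62 (standard error 0.39) for H2-Aa, 0.58 (standard error 0.36) for H2-Ab1 and 0.60 (standard error 0.36) for H2-Eb1, with exact permutation p-values of 0.0931, 0.106 and 0.0952. H2-Eb1 transcripts were thus plentiful although the alpha chain gene of H2-E, H2-Ea-ps, was all but unread.

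**Figure D1:**
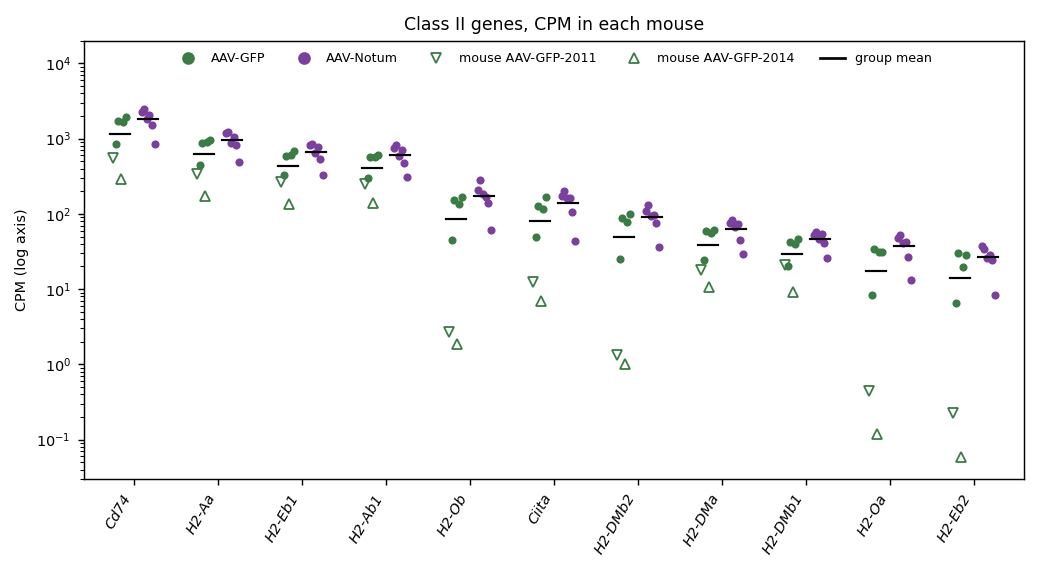
CPM of the 11 class II genes tested in each mouse, on a log axis; green symbols are AAV-GFP mice, purple dots are AAV-Notum mice, open triangles are the 2 lymphoid-low mice, and black bars are group means. For H2-Ob, H2-DMb2, H2-Oa and H2-Eb2 the open triangles lie at under 2% of the median of the other 10 mice, whereas for Cd74 they lie at 31.5% and 16.4% and for H2-Ab1 at 42.9% and 23.7%.

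Of Ciita and the H2-DM genes, Ciita and H2-DMb2 varied more than Cd74, and H2-DMa and H2-DMb1 did not. Ciita, the class II transactivator, had 7.03 CPM in the lowest AAV-GFP mouse, a median of 83.3 CPM and 167.9 CPM in the highest, against 43.9, 163.4 and 200.3 CPM under AAV-Notum. The fold change on the log2 scale was 0.82 (standard error 0.66, edgeR unadjusted p = 0.241, adjusted p = 0.521, exact permutation p = 0.123). H2-DMa and H2-DMb1, which encode the peptide exchange factor H2-DM, had log2 fold changes of 0.70 and 0.64 and the smallest AAV-GFP levels of 10.5 and 9.24 CPM. H2-DMb2, a further H2-DM beta chain gene, ran from 1.01 to 99.8 CPM in AAV-GFP mice and from 36.3 to 132.4 CPM in AAV-Notum mice (log2 fold change 0.89, standard error 0.86).

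The H2-DO genes had the highest fold changes of class II. H2-Oa, the alpha chain, had 0.119, 19.6 and 34.6 CPM in the lowest, median and highest AAV-GFP mice and 13.3, 41.6 and 51.8 CPM in AAV-Notum mice. The beta chain gene H2-Ob had 1.85, 90.6 and 166.2 CPM against 61.3, 175.2 and 282.3 CPM. For H2-Oa 4 AAV-Notum mice exceeded all AAV-GFP mice, and for H2-Ob 3 did. The log2 fold changes were 1.07 (standard error 0.88, edgeR unadjusted p = 0.248) and 1.04 (standard error 0.87, edgeR unadjusted p = 0.252), with exact permutation p-values of 0.0693 and 0.0714. H2-Eb2, an H2-E beta-like gene, ran from 0.0596 to 30.3 CPM and from 8.35 to 38 CPM (log2 fold change 0.91, standard error 0.91). At their lowest, in mouse AAV-GFP-2014, H2-Eb2 rested on 1 read and H2-Oa on 2 reads.

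All 11 class II genes tested were thus higher in AAV-Notum mice on average, by 0.58 to 1.07 on the log2 scale, and 0 of 11 had an unadjusted edgeR p under 0.05, also with DESeq2. The same mice stood at the ends of the range for most of these genes. Mouse AAV-GFP-2014 was the lowest AAV-GFP mouse for 11 of 11 genes and AAV-Notum-2042 the lowest AAV-Notum mouse for 11 of 11. At the other end, AAV-GFP-2022 was the highest AAV-GFP mouse for 9 of 11 and AAV-Notum-2032 the highest AAV-Notum mouse for 10 of 11. In AAV-GFP mice the highest level was between 4.34 and 507.6 times the lowest, and the median of this range over the genes was 6.73, against 2.95 in AAV-Notum mice and against 1.74 for all genes in AAV-GFP mice.

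Summed over class II, transcripts were 767.7 CPM in mouse AAV-GFP-2014, 1474 CPM in AAV-GFP-2011, 2109 CPM in AAV-GFP-2012, 4245 CPM in AAV-GFP-2021, 4278 CPM in AAV-GFP-2013 and 4782 CPM in AAV-GFP-2022. In AAV-Notum mice the sums were 2185 CPM in AAV-Notum-2042, 3803 CPM in AAV-Notum-2041, 4572 CPM in AAV-Notum-2033, 5219 CPM in AAV-Notum-2034, 5737 CPM in AAV-Notum-2031 and 6240 CPM in AAV-Notum-2032. The 3 highest sums were thus of AAV-Notum mice and the 3 lowest of AAV-GFP mice, with 6 mice interleaved. As shares of all reads, class II genes took 0.0689% to 0.693%.

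The lymphoid marker level ordered the mice similarly. The mean log2 CPM of the 24 B and T cell markers was -0.83 in mouse AAV-GFP-2014, -0.42 in AAV-GFP-2011, 3.21 in AAV-GFP-2012 and 4.59 in AAV-Notum-2042, the same 4 mice in the same order as the 4 lowest class II sums, and 5.73 to 6.71 in the others. The 2 highest mice, AAV-Notum-2031 and AAV-Notum-2032, were also the same by both measures. All 12 B cell markers and all 12 T cell markers had positive log2 fold changes, with medians of 0.98 and 0.97 and none at an unadjusted edgeR p under 0.05. Markers of macrophages shared this order in part. Their sum was lowest in AAV-GFP-2014 (556.2 CPM) and next lowest in AAV-Notum-2042 (955.7 CPM), which were also the lowest mice of their groups for every class II gene tested, and 7 of the 12 markers were lowest of all mice in AAV-GFP-2014. In AAV-GFP-2011, however, the sum was 1236 CPM, within the 955.7 to 1792 CPM of the other 10 mice, and 0 of 12 markers were below all other 10 mice in both lymphoid-low mice. Of the 11 macrophage markers tested, 7 were lower in AAV-Notum mice, among them Cd163 with a log2 fold change of -0.94 (edgeR adjusted p = 0.0696) and Mrc1 with -0.40 (edgeR adjusted p = 0.312).

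**Figure D2:**
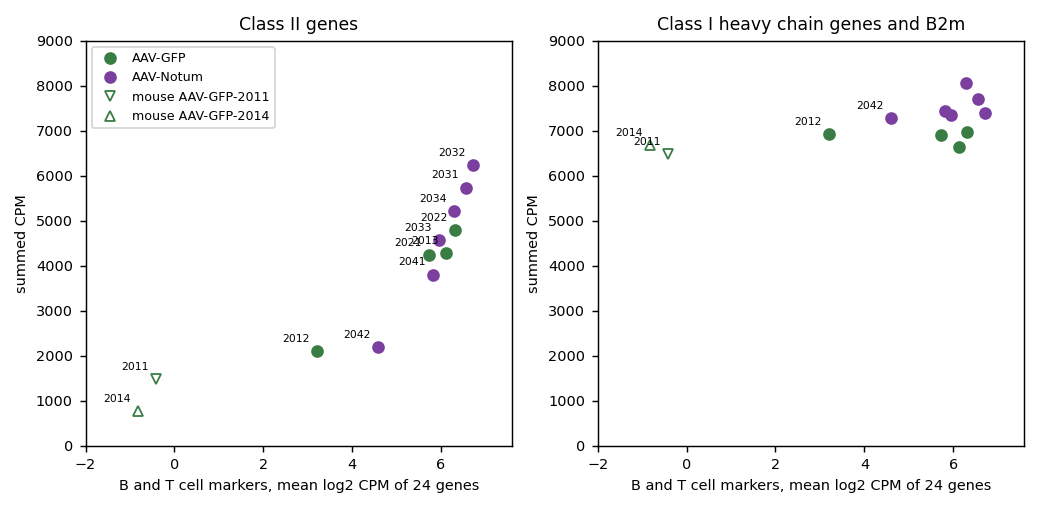
Summed CPM of class II genes (left) and of class I heavy chain genes and B2m (right) in each mouse against the mean log2 CPM of 24 B and T cell markers; green is AAV-GFP, purple is AAV-Notum, and open triangles are the 2 lymphoid-low mice. The class II sum runs from 767.7 to 6240 CPM and its 4 lowest mice are the 4 lowest by the markers, while the class I sum runs from 6484 to 6960.5 CPM in AAV-GFP mice and from 7272 to 8059 CPM in AAV-Notum mice.

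Without the 2 lymphoid-low mice, the median log2 fold change of the 11 class II genes was 0.31 (0.25 to 0.49), all 11 remaining above 0 and none reaching an unadjusted edgeR p of 0.05. For Cd74 it was 0.25 (standard error 0.32), for Ciita 0.29 (standard error 0.41) and for H2-Oa 0.49 (standard error 0.43). Without AAV-GFP-2012 as well, which leaves 3 AAV-GFP mice, the class II median was 0.06, with all 11 above 0, and 0 of the 36 genes of class I, its pathway and class II were higher at an unadjusted edgeR p under 0.05, beside 1.59% of all genes. With the score of lymphoid markers as a term of the edgeR fit, the class II median was 0.01, with 6 genes above 0 and 5 below, from -0.16 for H2-Eb2 to 0.12 for H2-DMb1. With the RNA integrity number as a term instead, it was 0.54.

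Levels that remained in the 2 lymphoid-low mice split the class II genes into distinct tiers. For Cd74, H2-DMa, H2-Aa, H2-Eb1, H2-Ab1 and H2-DMb1 the mean of these mice was 23.7% to 33.9% of the median of the other 10 mice. For Ciita it was 6.76%, and for H2-Ob, H2-DMb2, H2-Oa and H2-Eb2 it was 1.42%, 1.3%, 0.857% and 0.524%. B cell markers stood at 0.196% to 4.86% (median 0.459%) and T cell markers at 0.48% to 3.38% in the same comparison. Macrophage markers differed between these mice, with a median of 123.2% in AAV-GFP-2011 and 58% in AAV-GFP-2014. Dendritic cell markers had a median of 31.6% over both mice, with a span from 1.06% for Ccr7 to 115.9% for Clec10a. The last 4 class II genes therefore lay within the span of the lymphoid markers, and the invariant chain and classical chains lay above it. These are descriptions of mice picked out by their lymphoid transcripts, and which cells made the remaining transcripts was not tested.

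**Figure D3:**
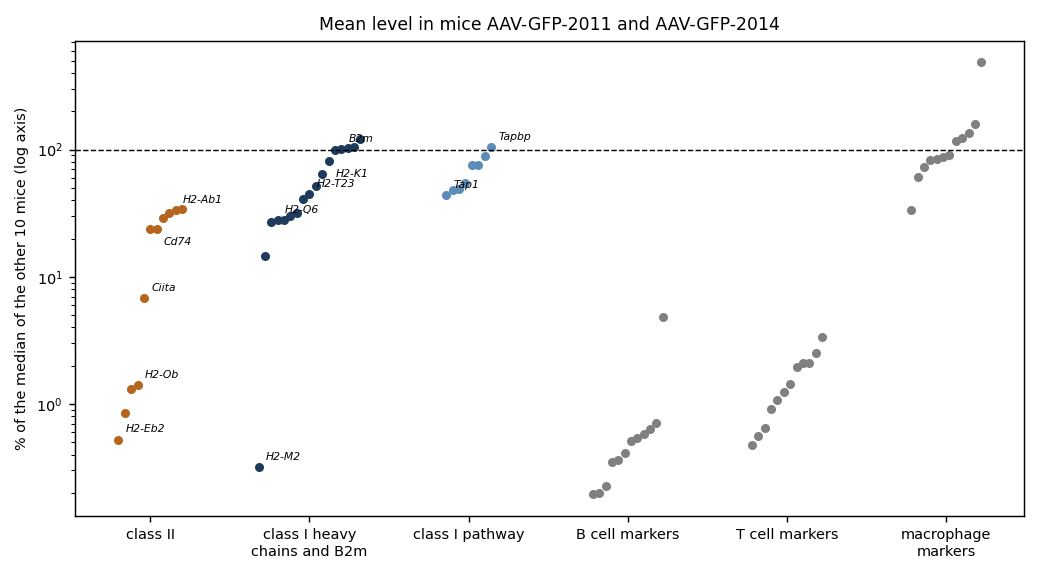
Mean CPM of the 2 lymphoid-low mice as a percentage of the median of the other 10 mice, on a log axis; each dot is a gene and the dashed line is 100%. Class II genes fall in tiers at 23.7% to 33.9%, at 6.76% and at 0.524% to 1.42%, whereas class I genes run from 0.317% for H2-M2 to 101.2% for B2m and 121.7% for H2-Q10.

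The class I genes with the highest levels, B2m, H2-D1 and H2-K1, varied little between mice, but the class as a whole did not. In AAV-GFP mice the highest level of the 17 genes tested was between 1.17 times (H2-D1) and 520.8 times (H2-M2) the lowest, with a median range of 2.54 against 6.73 for class II and 1.74 for all genes. The level per kilobase of annotated exon was 2363 CPM for B2m, 804.6 CPM for H2-D1 and 623.2 CPM for H2-K1 in AAV-GFP mice, against 696.5 CPM for Cd74 and 224.8 CPM for H2-Eb1. All other class I heavy chain genes were at or below 60.7 CPM per kilobase there, the value of H2-Q4. The summed level of class I genes with B2m had a lowest, median and highest value of 6484, 6793 and 6960.5 CPM in AAV-GFP mice and 7272, 7426 and 8059 CPM in AAV-Notum mice. Every AAV-Notum mouse was thus above every AAV-GFP mouse, the lowest of the AAV-GFP mice outside the lymphoid-low pair being at 6638 CPM. The groups also stayed apart when H2-K1 was left out of the sum (4759 to 5044 CPM against 5166 to 5600 CPM) and with RLE scaling (6470 to 7052 against 7068 to 8139). As shares of all reads, without TMM scaling, they overlapped, at 0.599% to 0.740% and 0.641% to 0.870%, with 4 of 6 AAV-Notum mice above every AAV-GFP mouse. These sums were compared after the values were seen and are given without a test.

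H2-K1 (ENSMUSG00000061232, chromosome 17, 33996017 to 34000347, minus strand), the heavy chain of the classical molecule H2-K, separated the groups without overlap after TMM scaling. It had 1655 CPM in the lowest AAV-GFP mouse, a median of 1874 CPM and 2012.2 CPM in the highest, and 2021.9, 2168 and 2459 CPM in AAV-Notum mice. The lowest AAV-Notum mouse was therefore above the highest AAV-GFP mouse, as for 0.398% of all genes, and H2-K1 was the only one of the 37 genes for which this held. As shares of all reads, without TMM scaling, the groups overlapped. AAV-GFP-2022 had 32676 H2-K1 reads of 15266635, and AAV-Notum-2041 had 32863 of 17838229. The means in CPM were 1831 ± 140 CPM and 2191 ± 153 CPM (mean ± SD of 6 mice), a difference of 1.2 times. By edgeR the log2 fold change came to 0.26 (standard error 0.11, unadjusted p = 0.0315, adjusted p = 0.310), and the exact permutation p was 0.00216, the smallest that 6 mice against 6 can give. Over 20 alternative fits the adjusted p of H2-K1 ran from 0.0329, with DESeq2, to 0.822.

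The 2 lymphoid-low mice had the lowest H2-K1 levels, at 1655 and 1672 CPM. Without them the log2 fold change of H2-K1 was 0.19 (edgeR unadjusted p = 0.157). The other 4 AAV-GFP mice, from 1869 to 2012.2 CPM, were still all below the AAV-Notum mice (two-sided exact permutation test of 4 against 6 mice, p = 0.00952, where the smallest possible is 0.00476), as were 0.59% of all genes. With the lymphoid score as a covariate the log2 fold change was 0.18 (edgeR unadjusted p = 0.161).

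Its classical neighbour and its light chain had small fold changes. H2-D1, the other classical heavy chain of this haplotype, had 1885, 2113.5 and 2202 CPM in the lowest, median and highest AAV-GFP mice and 1951, 2078 and 2246 CPM in AAV-Notum mice. B2m (ENSMUSG00000060802) had 1785, 2087 and 2203 CPM against 1960, 2141 and 2393 CPM. The groups overlapped for both genes, with both ends of the range higher in AAV-Notum mice. Their log2 fold changes were 0.00 (standard error 0.10, exact permutation p = 0.937) and 0.08 (standard error 0.11, exact permutation p = 0.227), and that of H2-D1 was between -0.02 and 0.02 with each mouse left out in turn. Cut into words of 50 bases, the length of a read, the annotated transcripts share 9.63% of words with another gene for H2-K1, 12.8% for H2-D1 and 0% for B2m.

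**Figure D4:**
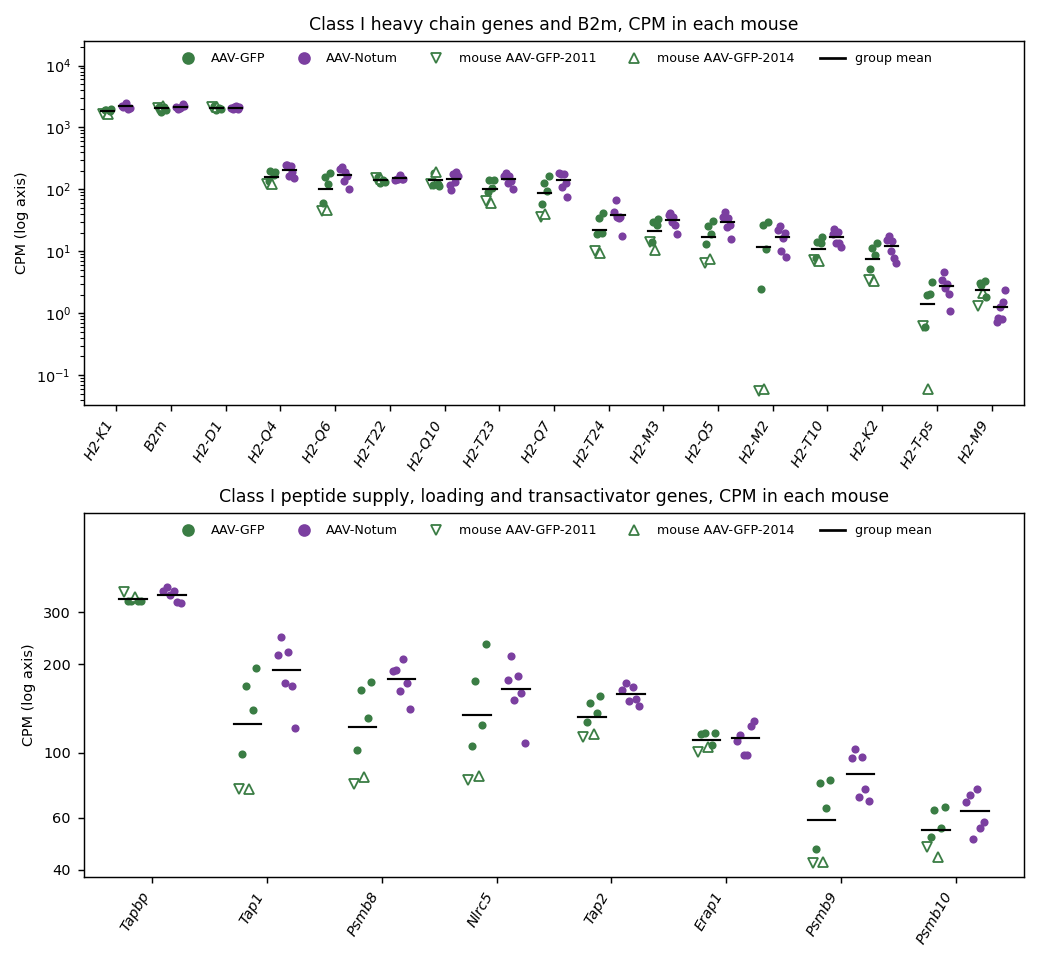
CPM in each mouse, on log axes, of the 17 class I heavy chain genes and B2m tested (top) and of the 8 class I pathway genes (bottom); symbols are as for the class II genes and black bars are group means. H2-K1 is the only gene whose AAV-Notum mice, from 2021.9 CPM, all lie above the AAV-GFP mice, up to 2012.2 CPM, and for H2-M2 the open triangles stand at 1 read each.

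Nonclassical class I genes of the Q and T regions were mostly higher in AAV-Notum mice, with overlap. H2-T23, which encodes Qa-1, a ligand of inhibitory NK cell receptors, had 59.6, 98.3 and 142.4 CPM in the lowest, median and highest AAV-GFP mice and 101.5, 148.1 and 185.5 CPM in AAV-Notum mice. Every AAV-Notum mouse was above the AAV-GFP mean and 3 were above its highest mouse (log2 fold change 0.54 with standard error 0.23, edgeR unadjusted p = 0.0385, adjusted p = 0.328, exact permutation p = 0.0455). H2-Q4 had 123.8, 153.9 and 197.4 CPM against 154, 217 and 250.5 CPM (log2 fold change 0.40, standard error 0.17, edgeR unadjusted p = 0.0339, adjusted p = 0.317, exact permutation p = 0.0563). H2-T10, whose product is a ligand of some gamma-delta T cells, had 6.97, 10.7 and 16.8 CPM against 11.7, 16.4 and 23.1 CPM (log2 fold change 0.61, standard error 0.26, edgeR unadjusted p = 0.0344, adjusted p = 0.320, exact permutation p = 0.0498). The near-identical H2-T22 showed no such difference, with means of 143 ± 11.2 and 150.6 ± 11.1 CPM (mean ± SD of 6 mice). Because 50.4% of the 50-base words of H2-T10 and 53.5% of those of H2-T22 also occur elsewhere, mainly in each other, how the reads were split between them is uncertain. Without the 2 lymphoid-low mice the log2 fold changes of H2-T23, H2-Q4 and H2-T10 were 0.29, 0.26 and 0.38, with unadjusted edgeR p-values of 0.156, 0.170 and 0.152.

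H2-Q6 and H2-Q7, which encode Qa-2 molecules, and their neighbour H2-Q5 had log2 fold changes of 0.75, 0.71 and 0.81, with unadjusted edgeR p-values of 0.0638, 0.0837 and 0.0542. H2-Q6 ran from 45.2 to 181.5 CPM in AAV-GFP mice and from 102.8 to 227.2 CPM in AAV-Notum mice. Of their words, 35%, 26.5% and 36.4% occur in other genes, so that these 3 values are not independent. H2-T24, H2-T-ps, H2-K2 and H2-M3, the last of which presents formylated bacterial peptides, had log2 fold changes of 0.82, 0.96, 0.66 and 0.57 with unadjusted edgeR p-values of 0.0600, 0.135, 0.110 and 0.0789. H2-Q10, a secreted class I protein made mainly by the liver, had 112.1 to 188.3 CPM and 96.2 to 187.7 CPM (log2 fold change 0.06). Alb, the albumin gene of hepatocytes, reached 3805 CPM in mouse AAV-GFP-2013, which had 185.1 CPM of H2-Q10, and 963 CPM in mouse AAV-GFP-2014, which had the highest H2-Q10 level. High H2-Q10 also occurred with little Alb, however, as 178.4 CPM of H2-Q10 went with 44.3 CPM of Alb in AAV-Notum-2033 and 166.6 CPM with 30 CPM in AAV-Notum-2042. The part of liver transcripts in the H2-Q10 values was not tested.

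H2-M9 (ENSMUSG00000067201, chromosome 17, 36639285 to 36642666, minus strand), a nonclassical gene of the M region, was the only one of the 37 genes tested with a negative log2 fold change. It had 1.29, 2.48 and 3.28 CPM in the lowest, median and highest AAV-GFP mice and 0.711, 1.05 and 2.33 CPM in AAV-Notum mice. The AAV-GFP mean exceeded all 6 AAV-Notum values, but AAV-Notum-2042 was above 3 AAV-GFP mice, so the groups overlapped. The log2 fold change was -0.96 (standard error 0.33, edgeR unadjusted p = 0.0128, adjusted p = 0.235, exact permutation p = 0.0195). Without the 2 lymphoid-low mice it was -1.17, and it kept an unadjusted p under 0.05 in all 20 alternative fits, with adjusted p-values from 0.0918 to 0.518. These values rest on 14 to 71 reads per mouse.

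H2-M2, another gene of the M region, was relatively as low in the 2 lymphoid-low mice as, or lower than, H2-Ob, H2-DMb2, H2-Oa and H2-Eb2. It had 1 read each in the 2 lymphoid-low mice, corresponding to 0.056 and 0.0596 CPM, and 2.44 to 29.2 CPM in the other AAV-GFP mice. In AAV-Notum mice it ran from 8.16 to 25.8 CPM. The log2 fold change was 0.57 (standard error 0.97, edgeR unadjusted p = 0.567) and -0.01 without these mice. H2-M2 shares 1.61% of its words with other genes.

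Beyond H2-M2, the levels in the 2 lymphoid-low mice were graded over the class I genes. Relative to the median of the other 10 mice their mean stood at 121.7% for H2-Q10, 105.3% for H2-D1, 103.5% for H2-T22, 101.2% for B2m, 99.7% for H2-M9 and 81.1% for H2-K1. They stood at 64.5% for H2-Q4, 52% for H2-T10, 45% for H2-T23, 41.2% for H2-M3, 31.9% for H2-K2, 27% to 30.3% for H2-Q5, H2-Q6, H2-Q7 and H2-T24, and 14.5% for H2-T-ps. Both mice were below all other 10 mice for 10 of the 17 class I genes, for 6 of the 8 class I pathway genes and for 10 of the 11 class II genes, beside 19.7% of all genes tested. Without these mice the median log2 fold change of the 17 class I genes was 0.29 and none of the 17 was higher at an unadjusted edgeR p under 0.05, and with the lymphoid score as a covariate the median was 0.15.

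Genes that supply and load class I peptides also differed among themselves. Psmb8, the inducible immunoproteasome subunit in place of Psmb5, had 78.2, 116.8 and 174 CPM in the lowest, median and highest AAV-GFP mice and 140.9, 181 and 208.8 CPM in AAV-Notum mice. The mean of the controls was exceeded by all 6 AAV-Notum mice and their highest value by 3 (log2 fold change 0.54, standard error 0.20, edgeR unadjusted p = 0.0192, adjusted p = 0.268, exact permutation p = 0.0260). Psmb9 had 42.1, 55.8 and 80.7 CPM against 68.6, 85.5 and 103.1 CPM (log2 fold change 0.52, standard error 0.19, edgeR unadjusted p = 0.0191, adjusted p = 0.268, exact permutation p = 0.0303). The third subunit gene, Psmb10, lies outside the MHC and had 44, 53.6 and 65.2 CPM against 50.7, 63.2 and 75.5 CPM, with a log2 fold change of 0.21 (standard error 0.13, exact permutation p = 0.132). Their constitutive counterparts Psmb5, Psmb6 and Psmb7 had log2 fold changes of -0.03, 0.02 and 0.06.

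Tap1, which with Tap2 forms the peptide transporter, had 75.2, 119.2 and 194.5 CPM in the lowest, median and highest AAV-GFP mice and 121.1, 193.8 and 246.9 CPM in AAV-Notum mice. Tap2 had 113.4, 132 and 155.6 CPM against 143.5, 157.2 and 172.8 CPM. For both genes 3 AAV-Notum mice were above every AAV-GFP mouse and the others lay within the AAV-GFP range. The log2 fold changes were 0.60 (standard error 0.26, edgeR unadjusted p = 0.0378, exact permutation p = 0.0498) for Tap1 and 0.25 (standard error 0.09, edgeR unadjusted p = 0.0166, exact permutation p = 0.0173) for Tap2, with adjusted p-values of 0.325 and 0.254.

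Nlrc5, the class I transactivator, had 80.5, 114.9 and 233.3 CPM in AAV-GFP mice and 108, 168 and 213.3 CPM in AAV-Notum mice, the highest single level being that of mouse AAV-GFP-2022. For Nlrc5 the log2 fold change was 0.30 (standard error 0.26, edgeR unadjusted p = 0.270, exact permutation p = 0.201). Tapbp had 327.2, 328.4 and 350.6 CPM against 323.8, 349.2 and 366.8 CPM, and its highest AAV-GFP level was that of mouse AAV-GFP-2011. Erap1 had 100.8, 110.7 and 116.9 CPM against 98.2, 112.2 and 128.4 CPM. With log2 fold changes of 0.05 (standard error 0.06) and 0.03 (standard error 0.08), Tapbp and Erap1 had the smallest fold changes of this pathway. In the 2 lymphoid-low mice Tap1, Psmb8, Nlrc5 and Psmb9 stood at 44.2% to 54.9% of the median of the other mice, Psmb10 and Tap2 at 75.2% and 75.8%, Erap1 at 89% and Tapbp at 105%.

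Without the 2 lymphoid-low mice, 0 of the 8 pathway genes had an unadjusted edgeR p under 0.05 and their median log2 fold change was 0.13. Psmb9, Psmb8 and Tap1 then had log2 fold changes of 0.33 (standard error 0.18), 0.32 (standard error 0.16) and 0.34 (standard error 0.23), and Tap2 had 0.16 (standard error 0.09). With the lymphoid score as a covariate the median was 0.09, and Nlrc5 was at -0.10.

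**Figure D5:**
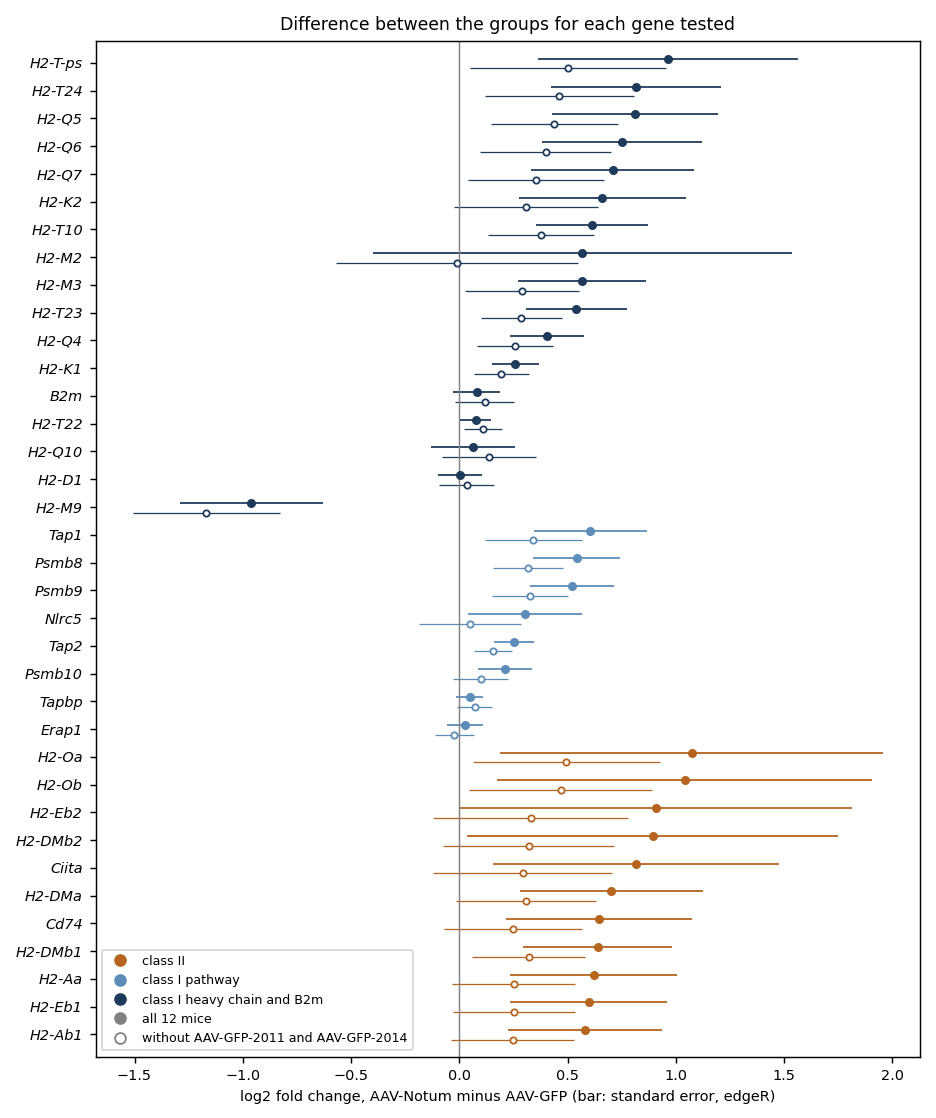
Log2 fold change, AAV-Notum minus AAV-GFP, of the 36 class I, class I pathway and class II genes tested, with edgeR's standard error as a bar; filled dots are all 12 mice and open dots leave out the 2 lymphoid-low mice. The class II median moves from 0.70 to 0.31 between filled and open dots, while H2-M9 moves from -0.96 to -1.17.

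H2-Ke6, the dehydrogenase gene, had 0.893 to 1.98 CPM in AAV-GFP mice and 1.26 to 1.91 CPM in AAV-Notum mice (log2 fold change 0.25, standard error 0.21). Of its 50-base words, 70.5% also occur in the overlapping gene model Gm20427.

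Genes of the same routes outside the rule gave few calls at an unadjusted p, where 4.64% of all genes were higher and 9.54% lower. Of 23 further genes of the class I route tested, 2 were higher and 2 lower at an unadjusted edgeR p under 0.05. The higher ones were Psme1 and Psme2, the interferon-inducible proteasome activator subunits, with log2 fold changes of 0.37 and 0.32. The lower ones were the peptidase genes Npepps and Thop1, at -0.22 and -0.23. The chaperone genes Calr, Canx and Pdia3 had log2 fold changes of -0.04, -0.09 and -0.14. Of 17 further genes of the class II route, 1 was higher, Rfxank (0.20), a subunit of the factor that recruits CIITA, and the protease gene Ctss had a log2 fold change of 0.64 (standard error 0.48). Of 7 class I-like genes outside the MHC, 1 was lower, Mill2 (-0.64). Without the 2 lymphoid-low mice Psme2 kept an unadjusted edgeR p under 0.05 (log2 fold change 0.25), and Psme1 (0.23), Npepps (-0.14), Thop1 (-0.10), Rfxank (0.17) and Mill2 (-0.43) did not. Ctss was then at 0.29 (standard error 0.34).

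Interferon-gamma is a main inducer of both classes of genes. In a list of its signalling genes, 13 of the 14 genes tested had positive log2 fold changes. The exception was the receptor gene Ifngr1, with a log2 fold change of -0.31 (edgeR unadjusted p = 0.0337, adjusted p = 0.317), and of -0.22 (edgeR unadjusted p = 0.157) without the 2 lymphoid-low mice. Ifng itself was near its floor, with means of 0.119 and 0.273 CPM, and was not tested.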

How the data were processed

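Total RNA of iWAT was made into TruSeq libraries by the authors, sequenced as 50 bp single-end reads on a HiSeq4000 and mapped to mm10 with STAR 2.3.1. FastQC and DESeq2 are also named in the submitters' processing notes, and the counting program and gene annotation are not given in the sources used here. The deposited raw table holds counts of reads per gene. A second deposited table holds log2 values, each the log2 of 1 plus the size-factor-scaled reads, from which whole reads came back for 100% of values (tolerance 0.01 reads). The tables rest on different counts: of 49 antigen presentation genes in both, 2 had identical reads in all mice.

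Counts were fitted in R 4.3.3 with edgeR 4.0.16 (filterByExpr with a minimum count of 10 and a minimum total of 15, TMM, glmQLFit and glmQLFTest, two-sided) on the groups of 6 without covariates. Adjustment was by Benjamini-Hochberg over all 15585 genes tested, with a threshold of 0.05, and standard errors are the log2 fold change over the square root of F. Exact permutation tests were two-sided on mean log2 CPM (prior count 2). The p-values set the difference between the groups against the spread between mice. Positions come from GENCODE vM21 and promoter windows from RefSeq (GRCm38.p6). The fit was tested on simulated counts. Figures were drawn with matplotlib 3.10.9.

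The genes, lists and tests were chosen with earlier results of these data known. Every gene that passed the filter is named. Full values were to be given for B2m, H2-K1, H2-D1, the 8 pathway genes, Cd74, Ciita, H2-Aa, H2-Ab1 and H2-Eb1 and for the 3 further genes of smallest p in each direction, and genes of other lists were named at an unadjusted p under 0.05. H2-Oa, H2-Ob, H2-DMb2, H2-Eb2, H2-M2, H2-Q6 and H2-Q10, the even genes of the other lists, and the relative levels in mice AAV-GFP-2014 and AAV-GFP-2011 were described with their values already seen. The alternative fits used DESeq2 1.42.0, RLE factors, no filter or at least 10 counts in every mouse, the RNA integrity number or lymphoid score as covariate, reads recovered from the second table, leaving out AAV-GFP-2011 and AAV-GFP-2014 together, and each mouse left out. A fit without AAV-GFP-2012 as well as these 2 was added after seeing the data. The replicate numbers were read as mouse numbers and pair no mice. They run from 2011 to 2014 and 2021 to 2022 in AAV-GFP mice, and from 2031 to 2034 and 2041 to 2042 in AAV-Notum mice. The mice low in T cell markers, AAV-GFP-2011, AAV-GFP-2012 and AAV-GFP-2014, are all of the first run. What these runs stand for is not known here, and their effect was not tested. Results of some genes are not reported here.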

Additional observations from a re-analysis of the deposited data

How the results depend on the processing

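Median fold changes of class I and its pathway stayed above 0 in all 20 alternatives. That of class II was 0.01 with the lymphoid score, with 6 genes above 0 and 5 below, and above 0 in the others. Counts at an unadjusted p were the least stable. The 4 class I heavy chain genes higher at an unadjusted p under 0.05 became 8 with DESeq2 (26 genes fitted), 8 without the filter, 0 with either covariate (RNA integrity number or lymphoid score), 1 (H2-Q2) without both lymphoid-low mice, and 0 without AAV-GFP-2012 as well, a fit added after seeing the data. With each mouse left out they numbered from 0, without AAV-Notum-2034, to 12, without AAV-GFP-2022, where the share of all genes called higher also moved, from 4.64% to 3.15% and 10.3%. They were 1 without AAV-GFP-2011, AAV-GFP-2014, AAV-Notum-2031 or AAV-Notum-2032, 2 without AAV-GFP-2012, 8 without AAV-GFP-2013 and 10 without AAV-Notum-2042. The 4 pathway genes became 0 with the lymphoid score, without both lymphoid-low mice or without AAV-GFP-2012 as well, and 3 to 5 with each mouse left out. The class II count of 0 became 1 without AAV-GFP-2022 (range 0 to 1), and the count past an adjusted p became 1 with DESeq2. With the lymphoid score the log2 fold changes of Nlrc5, Erap1, Cd74 and Ciita turned to -0.10, -0.00843, -0.0192 and -0.10, and without both lymphoid-low mice those of Erap1 and of the ratio of Psmb10 to Psmb7 turned to -0.0234 and -0.0662. With each mouse left out, H2-D1 ran from -0.0228 to 0.0213 and Erap1 from -0.0161 to 0.0633. The cause was not tested. Among single genes 440 of the other values kept direction and call. No paired analysis was possible because the groups share no replicate number. Depth limits the genes not tested, which had at most 20 reads in any mouse.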

Other observations

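The following values concern ratios between genes within a mouse and were chosen after the data were seen, with 4 ratios compared. The ratio of H2-K1 to H2-D1 reads was 0.761 to 1.03 in AAV-GFP mice and 0.968 to 1.1 in AAV-Notum mice, with means of 0.887 ± 0.11 and 1.05 ± 0.0523 (SD, n = 6). In 5 of 6 AAV-Notum mice the ratio exceeded all AAV-GFP values (two-sided exact permutation test on the log2 ratio, p = 0.0108, 0.0433 after Benjamini-Hochberg adjustment over the 4 ratios). The lowest ratios were those of the 2 lymphoid-low mice, 0.761 and 0.777, and without these mice the log2 ratio differed by 0.16 between the groups (exact permutation p = 0.0381, 0.152 after adjustment over the 4 ratios). In the immunoproteasome, the ratio of Psmb8 to its constitutive counterpart Psmb5 was 5.99 ± 2.61 in AAV-GFP mice and 8.79 ± 2.27 in AAV-Notum mice (exact permutation p = 0.0758). The ratios of Psmb9 to Psmb6 and of Psmb10 to Psmb7 had exact permutation p-values of 0.115 and 0.517.

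The authors' tables differ for some of these genes. Reads recovered from the normalized table came to 0.683 of the raw total for Tap2, 0.739 for H2-Q4, 0.766 for Psmb8 and 0.833 for H2-Oa, and the log2 fold changes from the recovered reads were 0.25, 0.39, 0.54 and 1.07.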
